A study of Sus scrofa with 6 samples.

Results

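CD55, CD46 and CD59 are cell-surface proteins that protect a body's own cells from complement, and their transcripts were followed here through 3 stages of follicle growth in the pig ovary. Every probe set of the array whose platform annotation gives 1 of these symbols and no other was taken, which gave 10 of 24123 probe sets, 5 for CD55, 3 for CD46 and 2 for CD59. No probe set named 1 of the genes together with another gene. These 3 genes, of 6765 genes named on the array, were chosen by their stage signals on these same arrays, in particular the high CD55 signal in middle follicles and the disagreement between CD46 probe sets. Their values across the stages are therefore a description, given without p-values.

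The arrays were single-channel Affymetrix porcine expression arrays hybridised with RNA of whole follicles from prepubertal gilts, young female pigs before puberty. The labels name no treatment, and the follicles were sorted by appearance and diameter into primordial, middle and last stages, with 2 arrays titled as biological replicates for each stage. No label tells how many animals gave follicles, or whether follicles were pooled, so the errors measure only the spread between these arrays, which may be technical. A second label attached to every sample calls all 6 primordial, against the titles, and the stages below rest on the titles.

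Complement is a cascade of plasma proteins in which the C3 and C5 convertases, enzyme complexes built on a target surface, lead to a pore called the membrane attack complex. CD55 (decay-accelerating factor) takes the convertases apart. CD46 (membrane cofactor protein) is a cofactor with which factor I cleaves C3b and C4b, and CD59 (protectin) blocks the last step, the assembly of C9 into the pore. CD55 and CD59 are held in the membrane by a glycosylphosphatidylinositol (GPI) anchor, whereas CD46 spans it. Follicular fluid contains complement proteins, and surface regulators have been described on mammalian eggs and sperm.

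Levels are the authors' linear array signals, scaled to a common trimmed mean. The median probe set signal was 119.3 to 169.9 per array. Differences are on the log2(signal + 16) scale, which understates the change of dim probe sets, and are given ± the standard error of a limma fit with n = 2 arrays per stage. Over the 14399 probe sets bright enough to be tested, the median difference was not 0: 0.22 between middle and primordial, -0.07 between last and middle, and 0.14 between last and primordial (the later stage minus the earlier). Small differences are to be read against these medians. A signal cannot be compared between probe sets, because each binds with its own strength. With whole follicles, fewer cells of a type and less RNA per cell cannot be told apart.

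The stage labels were set against markers of the cells a follicle holds. For 9 oocyte genes of 13 listed, the summed signal was 1314 and 2308 in primordial, 15776 and 16908 in middle, and 1579 and 1721 in last follicles. Most of the sum outside the middle stage came from KIT, a receptor whose signal went opposite to the other oocyte genes, and without it the sums were 422.8 and 420.9, then 15606 and 16653, then 688.0 and 714.3. ZP2, an egg coat protein, was at 21.9 and 22.9 on the arrays labelled primordial. Those arrays also held the highest summed signal of 8 leukocyte genes of 10 listed, at 18719 and 17082, against 1412 and 1010 in middle and 1628 and 4040 in last follicles. None of the markers on the array was at 0 on any of the 6 arrays, but this shows nothing about detection. The lowest signal of any probe set was 0.1 on each array. KRT18 was the one marker at or under a signal of 16 on all 6 arrays. For 12 granulosa genes the sums were 41374 and 54509 in primordial, 14741 and 21527 in middle, and 66974 and 60710 in last follicles. For 6 theca genes they were 6390 and 6021, then 3390 and 4699, then 19793 and 22868. The low oocyte and high leukocyte signal go against what the name primordial follicle would lead a reader to look for, and the word primordial below stands for the label of these arrays and no more. The last arrays differed from each other in the 17 tested complement genes other than CD55, CD46 and CD59. Of these, 15 were brighter on last replicate 2 than on last replicate 1, 10 of them more than 2 times. On primordial replicate 2, 1 of the 17 was more than 2 times brighter than on replicate 1, and on middle replicate 2 it was 0. The share over all tested genes was not counted, so this describes these genes only.

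CD55 had a higher signal on the middle arrays than on the arrays of both other stages. All 5 of its probe sets showed this, and in none did a middle array overlap an array of another stage. The fold between middle and primordial ran from 5.40 to 21.5 on the log2(signal + 16) scale. Probe set Ssc.31082.1.A1_at read 134.6 and 116.1 in primordial, 3664.5 and 2492.9 in middle, and 93.0 and 81.3 in last follicles. Both middle arrays lay far above the other 4, and the last arrays lay below the primordial ones. Middle minus primordial was 4.43 ± 0.25, a fold of 21.5, and last minus middle was -4.88 ± 0.25, a fold of 29.5. Among all probe sets tested these were the 49th highest and the 12th lowest differences. Last minus primordial was -0.45 ± 0.25.

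The annotation cites the RefSeq transcript of CD55 for Ssc.272.1.S1_a_at and Ssc.271.1.A1_at. Ssc.272.1.S1_a_at read 240.1 and 228.4 in primordial, 2470.4 and 2232.3 in middle, and 258.5 and 267.1 in last follicles. Its primordial and last arrays lay close together, with the last arrays slightly above. The middle arrays were higher than the primordial ones by 3.24 ± 0.20, and last minus middle was -3.08 ± 0.20. Ssc.271.1.A1_at read 179.8 and 184.1, then 1796.9 and 1285.3, then 125.4 and 126.6. Here the last arrays lay below the primordial ones, so the order of the outer stages was not the same for these probe sets. Its differences were 2.96 ± 0.24 and -3.44 ± 0.24.

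The remaining CD55 probe sets were the dimmest outside the middle stage, where single arrays read as low as 6.2. Ssc.7698.2.A1_at read 84.0 and 8.3 in primordial, 401.0 and 231.0 in middle, and 47.7 and 48.7 in last follicles. The primordial arrays stood far apart, and the difference of 2.70 ± 0.60 for middle minus primordial became 1.68 without primordial replicate 2 and 3.72 without primordial replicate 1. Ssc.7698.1.S1_at read 17.6 and 39.0, then 239.3 and 194.8, then 6.2 and 23.2. Its mean over the 6 arrays was under the filter of 91.3, and without that filter its differences were 2.43 ± 0.44 and -2.98 ± 0.44. With a pseudocount of 1 in place of 16 these became 2.99 and -4.04, its last minus primordial went from -0.54 to -1.05, and middle minus primordial of Ssc.7698.2.A1_at became 3.44, so the folds of these dim probe sets depend on the pseudocount. Between the outer stages the 5 CD55 probe sets differed by -0.54 to 0.38 (last minus primordial). For Ssc.272.1.S1_a_at and Ssc.7698.2.A1_at the sign of that small difference turned with quantile normalization, to -0.025 and -0.065. For the latter it was also -0.64 without primordial replicate 2, and 1.40 without primordial replicate 1. Across the 6 arrays, the log2 signals of the 4 CD55 probe sets above the filter correlated with each other at r of 0.864 to 0.998, a description of arrays that share 3 stages.

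**Figure D1:**
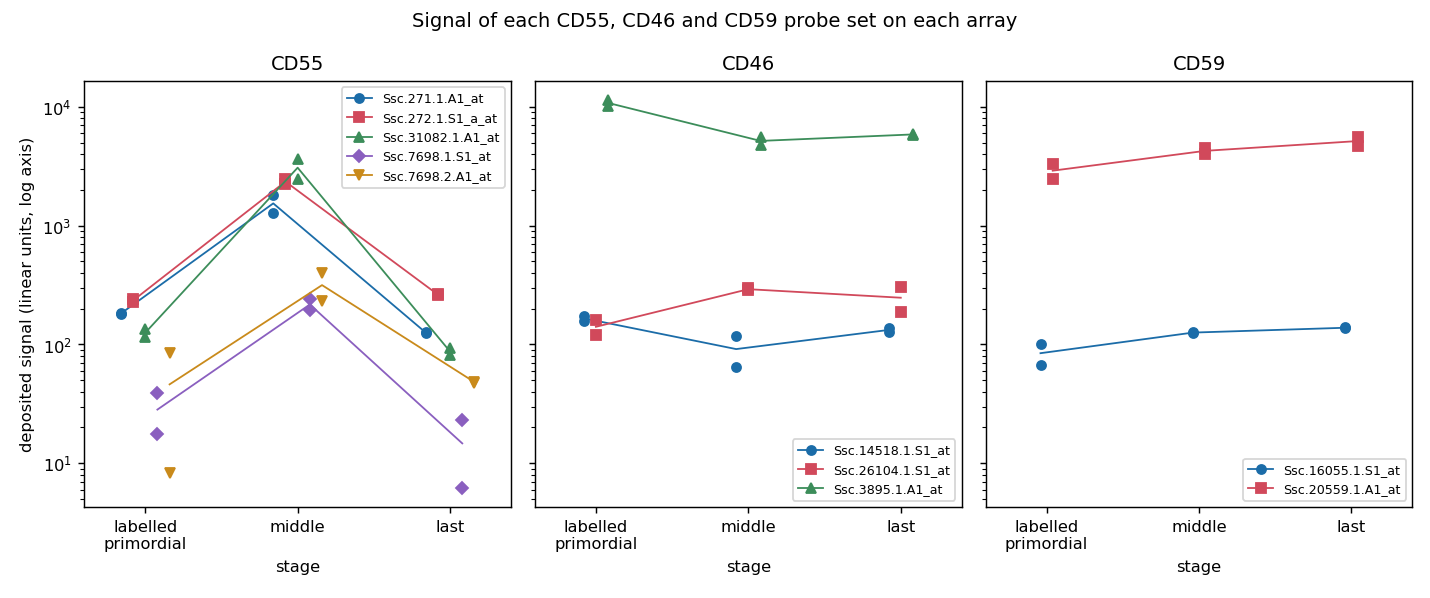
Deposited signal (linear units on a log axis) of each probe set by stage, with 1 point per array and a line through the stage means. The 5 CD55 probe sets peak on the middle arrays, the 3 CD46 probe sets go different ways, and both CD59 probe sets are lowest on the arrays labelled primordial.

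CD46 gave no single pattern. Its 3 probe sets differed in direction between the arrays labelled primordial and the middle arrays, and each is described on its own. Ssc.3895.1.A1_at read 10266.1 and 11342.4 in primordial, 4735.1 and 5610.7 in middle, and 5945.1 and 5787.8 in last follicles. The primordial arrays lay above all others, and the middle and last arrays lay close together. Middle minus primordial was -1.06 ± 0.15, a fold of 2.09. Last minus primordial was -0.88 ± 0.15, and last minus middle was 0.19 ± 0.15, whose sign turned with quantile normalization (-0.030).

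Ssc.14518.1.S1_at, the CD46 probe set whose annotation cites the RefSeq transcript, was dim. It read 173.8 and 158.6 in primordial, 118.5 and 64.4 in middle, and 137.0 and 128.0 in last follicles. The primordial arrays were again highest, without overlap, but the middle arrays spread widely. Middle minus primordial was -0.81 ± 0.33, and it became -0.44 without middle replicate 2 and -1.18 without middle replicate 1. Last minus middle was 0.51 ± 0.33, with 0.14 and 0.88 without the same arrays, and last minus primordial was -0.29 ± 0.33.

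Ssc.26104.1.S1_at went the other way. It read 120.1 and 161.6 in primordial, 298.0 and 286.1 in middle, and 306.7 and 188.3 in last follicles. The primordial arrays were lowest, and the last arrays overlapped the middle ones. Middle minus primordial was 0.99 ± 0.29, a fold of 1.98. Last minus primordial was 0.72 ± 0.29, which became 0.39 without last replicate 1 and 1.05 without last replicate 2. Last minus middle was -0.26 ± 0.29, and its sign turned without last replicate 2 (0.067). Ssc.26104.1.S1_at kept its positive difference from the arrays labelled primordial, and Ssc.3895.1.A1_at and Ssc.14518.1.S1_at their negative one, under median centring and under quantile normalization. The log2 signals of the 3 probe sets correlated at r of -0.841 to 0.631 over the 6 arrays. The files do not say which part or form of the transcript each probe set reads.

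CD59 was lowest on the arrays labelled primordial and differed little between the middle and last arrays. Ssc.20559.1.A1_at read 2480.4 and 3329.5 in primordial, 4493.6 and 4039.7 in middle, and 4683.3 and 5630.7 in last follicles. The stages did not overlap, but the last and middle arrays were close. Middle minus primordial was 0.57 ± 0.19, a fold of 1.48, and last minus primordial was 0.83 ± 0.19, a fold of 1.78. The first of these became 0.35 without primordial replicate 1 and 0.78 without primordial replicate 2, and it was 0.33 with each array centred on its median. Last minus middle was 0.27 ± 0.19.

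Ssc.16055.1.S1_at, the CD59 probe set that cites the RefSeq transcript, was dim, at 101.3 and 67.6, then 127.9 and 123.9, then 139.5 and 137.1. The order of the stages was that of the brighter probe set, and no stage overlapped another. Middle minus primordial was 0.52 ± 0.32, but 0.019 with quantile normalization and 0.27 without primordial replicate 2. Last minus primordial was 0.64 ± 0.32, but 0.33 with quantile normalization and 0.40 without primordial replicate 2, and last minus middle was 0.12 ± 0.32.

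Counts over the 10 probe sets stand beside the share of all tested probe sets, and nothing is read from them, since these comparisons chose the genes. Between middle and primordial, the middle arrays of 8 probe sets lay wholly above and those of 2 wholly below, against 47.5% above and 29.2% below (76.7% in all) over the array. Of the 9 probe sets above the filter, 7 passed limma's threshold in this comparison, 6 higher and 1 lower, against 29.7% higher and 17.7% lower (47.4% in all). Between last and middle, 4 probe sets lay wholly above and 5 below, against 25.2% and 35.0% (60.2% in all). Past the threshold were 4, all CD55 and all lower, against 7.29% higher and 9.94% lower (17.2% in all). Between last and primordial, 4 lay wholly above and 4 below, against 41.1% and 27.9% (69.0% in all). Past the threshold were CD59 Ssc.20559.1.A1_at as higher and CD46 Ssc.3895.1.A1_at as lower, against 19.8% higher and 13.4% lower (33.2% in all). The filter itself favours probe sets that are bright in 1 stage: CD55 Ssc.7698.2.A1_at passed it only through its middle arrays.

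**Figure D2:**
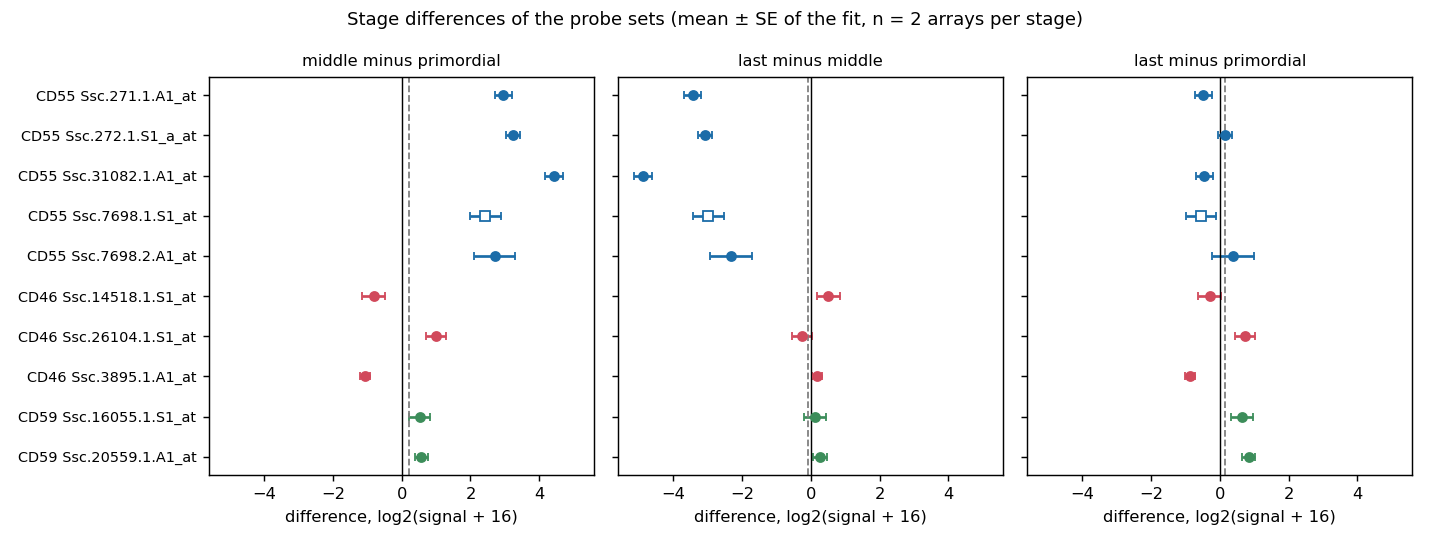
Differences between stages on the log2(signal + 16) scale for the 10 probe sets, as the fitted mean with its standard error (n = 2 arrays per stage), with the dashed line at the median of all tested probe sets. The open square is the CD55 probe set under the filter. The CD55 values lie between 2.43 and 4.43 in the left panel and between -4.88 and -2.32 in the middle panel, and the CD46 probe sets lie on both sides of 0.

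Several groups of genes stood highest on the middle arrays together with CD55. Oocyte genes did: ZP3, an egg coat protein, read 67.4 and 75.5, then 2427.3 and 2635.3, then 121.0 and 118.9, and GDF9, a growth factor of the oocyte, read 137.3 and 150.6, then 1395.8 and 1432.8, then 202.0 and 161.8. Of 7 tested oocyte genes 6 passed the threshold as higher in middle than primordial arrays, against 22.9% of all genes. The germ cell and stem cell receptor KIT passed as lower. Of the 6, ZP2, ZP4, DPPA5 and H1FOO passed the filter on dim probe sets only through their middle arrays. The count of 6 is therefore largely built in by the filter, and nothing is read from it. AMH, a hormone of granulosa cells, also stood highest there, at 969.5 and 1763.9 against 106.6 to 273.0 on the other 4 arrays. Most granulosa genes did not follow AMH. Of 9 tested, 2 were higher and 5 lower in middle than primordial arrays, against 22.9% and 22.5% of all genes. The granulosa list had its lowest summed signal on the middle arrays, at 14741 and 21527 against 41374 to 66974 elsewhere. The summed signal of 5 epithelial genes, KRT8 and CDH1 among them, was 481.5 and 352.6, then 1351 and 1385, then 221.3 and 239.8. KRT8 alone gave 650.7 and 780.1 of the middle sums. Not all of the list shared this shape. KRT18 and KRT19 were under the filter, with stage means of 5.65, 5.85 and 3.8 for KRT18 and 8.05, 4.0 and 13.7 for KRT19. The part of these cell types in the CD55 signal was not tested. Stromal fibroblast genes did not share the shape: their summed signal was 913 and 689, then 17506 and 11246, then 13267 and 10110.

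The genes most like each probe set over the 6 arrays were sought among 5431 other genes by Pearson's r of log2 signals. Since the arrays share 3 stages, an r near 1 says mainly that the stage means run alike. For CD55 Ssc.272.1.S1_a_at these were ZP2 (r = 0.997), the alpha-catulin gene CTNNAL1 (0.997), the potassium channel gene KCNN3 (0.996), ZP3 (0.995) and GDF9 (0.995), and 139 genes were above 0.95. EIF4G3, a translation initiation factor, came first for Ssc.271.1.A1_at (0.999) and Ssc.31082.1.A1_at (0.998), though it differed far less, with 1167.1 and 1200.7, then 1847.7 and 1755.4, then 1125.4 and 1113.0. The adenosine receptor gene ADORA1 and the myosin gene MYO5B were among the 5 for both. PDZK1 and CFAP73 completed the 5 for Ssc.271.1.A1_at, and C4H8orf76 and QPCT those for Ssc.31082.1.A1_at. For Ssc.7698.2.A1_at, whose primordial arrays stood apart, the 5 were DCAF13, LUC7L3, TAX1BP1, C1H9orf78 and DPM1.

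**Figure D3:**
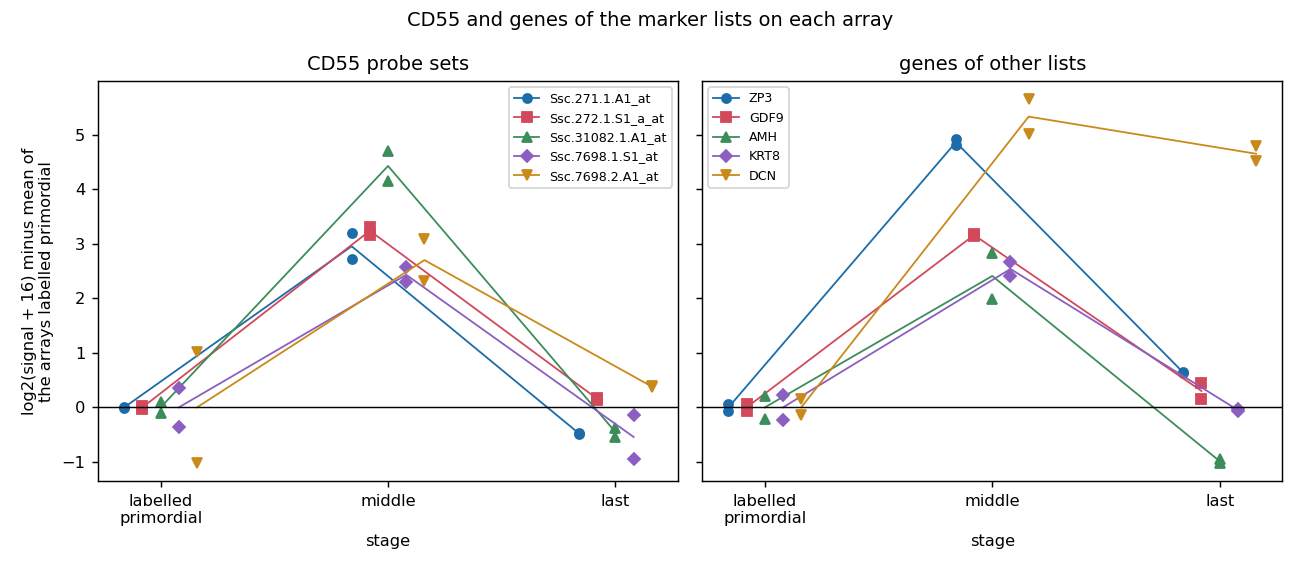
Each array's log2(signal + 16) minus the mean of the arrays labelled primordial, for the 5 CD55 probe sets (left) and for ZP3, GDF9, AMH, KRT8 and the stromal proteoglycan gene DCN (right), with lines through the stage means. CD55, ZP3, GDF9, AMH and KRT8 are high on the middle arrays alone, while DCN stays high on the last arrays.

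For CD46 the lists of like genes had no gene in common between probe sets. This follows from the r between the probe sets, at most 0.631, and adds nothing to it. TXNRD1, thioredoxin reductase, led for Ssc.3895.1.A1_at (r = 0.998), at 2241.9 and 2610.7, then 203.7 and 301.4, then 403.6 and 341.4. BAZ1A, SYS1, TFG and DDAH1 followed, all above 0.994, and 296 genes were above 0.95. GMPPB and STAT5A led for Ssc.14518.1.S1_at (0.989 and 0.984), for which 4 genes were above 0.95, and ACSL5, LOC100512195 and TVP23B followed. CCDC34, DFFA, SCG5, ERGIC2 and C6H1orf123 were nearest to Ssc.26104.1.S1_at. Most leukocyte genes were, like Ssc.3895.1.A1_at, highest on the arrays labelled primordial. CD53, a leukocyte tetraspanin, read 7746.5 and 8074.0 there and 154.5 to 671.8 elsewhere. The leukocyte gene PTPRC, under the filter, did not share this, at 47.5 and 49.9, then 33.8 and 21.0, then 56.5 and 41.1. The part of leukocytes in the CD46 signal was not tested.

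For CD59 Ssc.20559.1.A1_at the nearest genes were ABLIM1 (r = 0.996), TINAGL1, ATP10A, RDH11 and TM4SF1. ABLIM1, an actin-binding protein, read 237.8 and 427.9, then 824.7 and 748.9, then 965.3 and 1336.8. For Ssc.16055.1.S1_at they were SPC25, NAP1L1, PTH1R, ARPC2 and LOC100526084. The smooth muscle and pericyte list also had its lowest summed signal on the arrays labelled primordial, at 6542 and 6042, then 8509 and 9876, then 30038 and 29864. Its genes were not uniform between primordial and middle arrays. Of 6 tested, 3 passed as higher and 1 as lower, against 22.9% and 22.5% of all genes. Among the higher was ACTA2, with most of the sum. ACTG2 passed as lower, at 196.3 and 354.1, then 63.6 and 101.0. Other lists were also lowest on the arrays labelled primordial. Stromal fibroblast genes summed to 913 and 689, then 17506 and 11246, then 13267 and 10110. Erythroid genes summed to 814 and 742, then 1811 and 1683, then 1433 and 1194. The oocyte list without KIT was lowest there too. The part of any of these cell types in the CD59 signal was not tested.

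The other genes of complement did not move as 1 block. Of 49 genes listed, 30 were on the array and 17 were above the filter. In middle minus primordial 5 were higher and 8 lower by limma (adjusted p under 0.05), which is 13 of 17. Over all genes taken at 1 probe set each, 22.9% were higher and 22.5% lower (45.5% in all). Their median difference was 0.21, against 0.06 over all genes. Last minus middle called 1 higher and 1 lower, against 8.8% and 7.23% of all genes (16% in all), and last minus primordial 5 higher and 6 lower, against 17.2% and 15.8% (32.9% in all). Last minus primordial had a median of -0.93. The count in middle minus primordial was 8 without primordial replicate 1 and also 8 without middle replicate 1. In last minus middle it was 6 without last replicate 1, the last array with the lower complement signal, and 1 without either middle array.

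Among the other regulators, the genes of the fluid phase did not all go the same way. C4BPA, the alpha chain of C4b-binding protein, a soluble inhibitor of the classical convertase, fell by 3.15 ± 0.59 from primordial to middle arrays (limma adjusted p = 0.00217). It read 2717.0 and 2396.1, then 250.4 and 296.3, then 279.4 and 1521.9, so the last arrays differed widely from each other. VSIG4, the complement receptor of tissue macrophages, fell by 2.89 ± 0.31 (adjusted p = 0.000125) and stayed low on the last arrays. SERPING1, the C1 inhibitor, was higher by 1.22 ± 0.39 in middle arrays (adjusted p = 0.0283), a call lost without the filter, with median centring, and without primordial replicate 1 or either middle array, with adjusted p from 0.00174 to 0.149. CLU, clusterin, which binds the forming pore in plasma, passed no threshold between middle and primordial arrays (0.21 ± 0.22). It read 4268.9 and 4862.5, then 4869.1 and 5700.5, then 1120.3 and 1720.6, and fell by 1.91 ± 0.22 from middle to last (adjusted p = 0.000557).

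Genes of the classical and lectin pathways went both ways from primordial to middle arrays. Of 6 tested, C1R, C1S and C4A were higher and C1QA, C1QC and C2 lower. Over all genes, 22.9% were higher and 22.5% lower. C1S and C1R, the proteases of the first complex, rose by 4.28 ± 0.49 (limma adjusted p = 0.000166) and 2.55 ± 0.50 (adjusted p = 0.00287). C1S read 129.5 and 190.0, then 3869.0 and 2877.7, then 1847.2 and 6762.8, with all middle and last arrays far above the primordial ones. C1QA, a chain of the recognition protein C1q, fell by 2.48 ± 0.50 (adjusted p = 0.00315). C2, the protease of the classical convertase, fell by 1.36 ± 0.37 (adjusted p = 0.0142). The C2 call was not followed under the alternatives and is not in the counts of calls held or lost. C4A was higher by 0.93 ± 0.24 (adjusted p = 0.0116), which was lost without primordial replicate 1 and without either middle array (adjusted p up to 0.0899).

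C3, the central component, did not pass in any comparison, with 0.36 ± 0.28 for middle minus primordial. CFD, factor D of the alternative pathway, fell by 1.94 ± 0.35 in the same comparison (limma adjusted p = 0.00182). C7, which starts the membrane-bound part of the pore, rose by 2.76 ± 0.51 (adjusted p = 0.00217) and was the 1 terminal gene of 6 on the array above the filter. Of the complement receptors, ITGB2, the leukocyte integrin chain of CR3 and CR4, fell by 4.31 ± 0.33 (adjusted p = 2.04e-05), and CD93 fell by 0.97 ± 0.26 (adjusted p = 0.014). The CD93 call was lost without either primordial array and without middle replicate 1 (adjusted p up to 0.106). VSIG4, C1QA and ITGB2 are genes of macrophages or leukocytes, and ITGB2 also stands in the leukocyte list. All 6 tested genes of that list passed the threshold as lower in middle minus primordial, against 22.5% of all genes. Its genes PTPRC and CD14 were under the filter. The part of leukocytes in these complement signals was not tested.

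**Figure D4:**
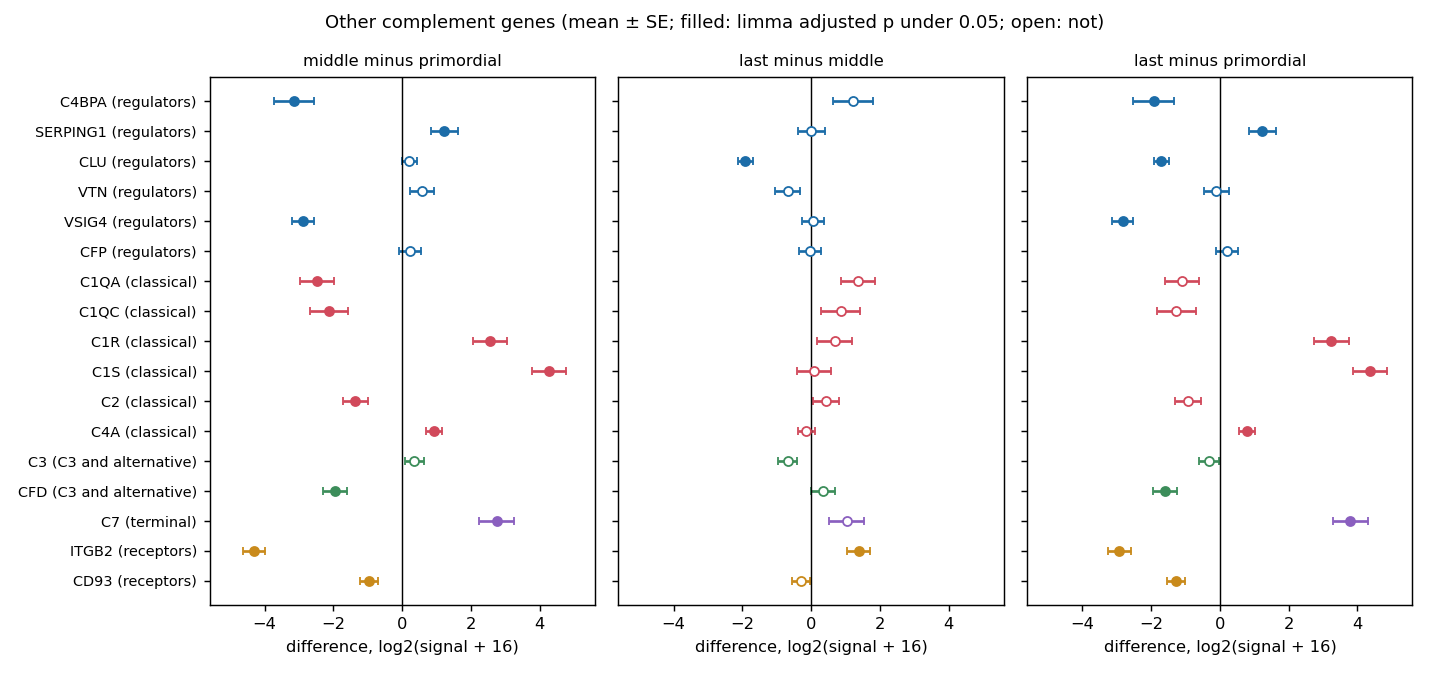
Differences between stages on the log2(signal + 16) scale for the 17 tested complement genes other than CD55, CD46 and CD59, with the standard error (n = 2 arrays per stage) and filled points where limma's adjusted p was under 0.05. In middle minus primordial 5 genes are filled to the right of 0 and 8 to the left, and in last minus middle 1 on each side.

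In the RefSeq gene table of assembly Sscrofa11.1, CD55 and CD46 are both on chromosome 9 and CD59 is on chromosome 2. CD55 lies between C4BPA and CR1, both regulators of complement. Its neighbours did not share its signal. C4BPA was lower on the middle arrays (250.4 and 296.3), where CD55 was brightest, than on the primordial ones. Last replicate 1 was about as low, at 279.4. CR1, a receptor for C3b and C4b, was under the filter, at 9.4 to 112.2. Of the protein-coding genes within 2 places of CD46, only the vascular and stem cell marker CD34 had a probe set, and it read 104.6 and 102.8, then 286.9 and 290.9, then 285.8 and 472.5. FBXO3, next to CD59, read 215.3 and 153.4, then 490.5 and 495.3, then 279.4 and 288.1, and so peaked on the middle arrays, where CD59 did not.

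The enzymes that make and attach GPI anchors were measured because CD55 and CD59 carry one. Of 28 listed, 15 were on the array and all 15 were above the filter. In middle minus primordial 4 were higher and 2 lower, against 45.5% of all genes, with a median of 0.20. PIGP and PIGX, subunits of enzymes that make the anchor, rose by 1.44 ± 0.17 (limma adjusted p = 0.000202) and 1.58 ± 0.27 (adjusted p = 0.00129). PIGM, a mannosyltransferase, rose by 1.57 ± 0.32 (adjusted p = 0.00327). PIGT, of the transamidase that attaches the anchor, fell by 0.89 ± 0.20 (adjusted p = 0.00546), a call lost without primordial replicate 2 (adjusted p range 0.00179 to 0.0579). Last minus primordial called 3 of the 15, all higher, against 32.9% of all genes. Last minus middle called 1 of the 15, against 16% of all genes (7.23% lower): PIGX, which fell by 1.05 ± 0.27 (adjusted p = 0.0272), a call lost without either middle array and without last replicate 2 (adjusted p up to 0.191).

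Genes of the egg coat and egg membrane also differed among themselves. ZP4, ZP2 and ZP3 rose by 5.91 ± 0.23, 5.71 ± 0.27 and 4.86 ± 0.22 from primordial to middle arrays, with limma adjusted p of at most 2.47e-06. CD9, a tetraspanin that the egg needs for fusion with sperm and that many other cells carry, fell by 1.44 ± 0.18 (adjusted p = 0.000252), from 3317.3 and 3010.7 to 1096.4 and 1217.6. It read 2009.6 and 2316.4 on the last arrays.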

How the data were processed

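The authors deposited 1 table of linear signal intensity for 24123 probe sets on 6 arrays, made with GCOS per the submitters' processing notes (no version or setting was given). Per the labels' protocols, biotinylated cRNA was made from total RNA. Trimmed by 2% at each end, every array's deposited intensity averaged 500.1. Genes were named from the platform annotation where it gives 1 symbol (10069 of 23999 probe sets without the 124 controls, 9961 of them matched to RefSeq by gene identifier, with 0 symbols changed).

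Values were taken as log2(signal + 16) without further normalization. The dimmest 40% by mean signal, under 91.3, were left out, which left 14399 probe sets. Linear models (limma 3.58.1 in R 4.3.3, lmFit, eBayes with trend) held all 6 arrays, with 1 mean per stage and no block, and 3 residual degrees of freedom. Tests were two-sided, adjusted by Benjamini-Hochberg over all probe sets tested, with a threshold of 0.05. The fit was tested on simulated data. A list gene was taken at its probe set with the highest mean. Python 3.11.15 drew the figures.

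The genes, the lists and the rules were chosen with earlier results of these data known. Named were every probe set of CD55, CD46 and CD59, and up to 4 genes per list with the smallest p. The 5 genes nearest to each probe set by r and marker genes were named too. C2, C1QC, KIT, ACTA2, ACTG2, KRT8, KRT19, CDH1, CD53, CR1, CD34 and FBXO3 were named after their values were seen. Alternatives were a pseudocount of 1, no filter or a 60% filter, median centring, quantile normalization, a replicate block, 4-array fits, the mean of a gene's probe sets, and each array left out. Same-numbered arrays deviated together at r of -0.048 to 0.059, so the replicate numbers were not taken as pairs. Sequences were not used here.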

Additional observations from a re-analysis of the deposited data

How the results depend on the processing

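Over 375 recomputed differences of the 10 probe sets, 336 stayed within 1 residual SD of the reported value, 36 moved by more with the same sign, and 3 moved by more and reversed. The sign changed in 5 in all, the other 2 being CD55 Ssc.272.1.S1_a_at (-0.025) and Ssc.7698.2.A1_at (-0.065) in last minus primordial with quantile normalization. The larger reversals were CD46 Ssc.26104.1.S1_at in last minus middle without last replicate 2 (0.067), CD46 Ssc.3895.1.A1_at in last minus middle with quantile normalization (-0.030) and CD55 Ssc.7698.2.A1_at in last minus primordial without primordial replicate 2 (-0.64); the cause was not tested. CD55 Ssc.7698.1.S1_at was recomputed without the filter throughout. Many of the 375 differences could not move, so the count of 336 overstates how stable the values are. A change of filter, the replicate block and a fit of only the stages compared all leave a difference as it was. So does leaving out an array of the stage not compared. Only the pseudocount, median centring, quantile normalization and leaving out an array of a compared stage could move a difference. With quantile normalization, middle minus primordial was -1.31 for CD46 Ssc.14518.1.S1_at, 0.62 for Ssc.26104.1.S1_at, -0.74 for Ssc.3895.1.A1_at and 0.81 for CD59 Ssc.20559.1.A1_at, and last minus primordial was -0.75 for CD55 Ssc.31082.1.A1_at. With each array centred on its median, middle minus primordial was 0.33 for CD59 Ssc.20559.1.A1_at and -1.30 for CD46 Ssc.3895.1.A1_at.

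Leaving out 1 array at a time, middle minus primordial ranged from -1.18 to -0.44 for CD46 Ssc.14518.1.S1_at, 0.35 to 0.78 for CD59 Ssc.20559.1.A1_at and 4.15 to 4.71 for CD55 Ssc.31082.1.A1_at. Last minus middle ranged from 0.14 to 0.88 for CD46 Ssc.14518.1.S1_at, -0.59 to 0.067 for CD46 Ssc.26104.1.S1_at and -5.16 to -4.61 for CD55 Ssc.31082.1.A1_at. Last minus primordial ranged from 0.62 to 1.05 for CD59 Ssc.20559.1.A1_at 0.39 to 1.05 for CD46 Ssc.26104.1.S1_at and -0.64 to 1.40 for CD55 Ssc.7698.2.A1_at. Probe sets past the threshold ranged from 4356 to 7189 in middle minus primordial, 727 to 2172 in last minus middle and 2730 to 4297 in last minus primordial, and complement genes from 8 to 13, 1 to 6 and 8 to 12. With the 4 arrays of the stages compared, last minus middle called 1 complement gene.

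With the replicate number as a block, 6601, 2279 and 4532 probe sets and 13, 2 and 11 complement genes were called in the same order of comparisons. The share of calls that were higher was 62.7%, 42.3% and 59.7% as deposited, 47.5%, 54.8% and 47.4% with median centring, and 52.5%, 48.1% and 51.1% with quantile normalization. Of 41 calls of named list genes, 28 held under every alternative in which the gene was fitted and 13 were lost under at least 1. The mean of a gene's probe sets was used for the complement counts only. A gene that the 60% filter removed was not counted as lost there. A stage left with 1 array is assumed to vary like the others. Signals near the background limit Ssc.7698.1.S1_at and Ssc.7698.2.A1_at of CD55 and Ssc.16055.1.S1_at of CD59.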
